A study of Mus musculus with 10 samples.

Results

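Astrocytes are star-shaped glial cells that take up neurotransmitter, move potassium and water, and supply neurons with metabolites. The 10 genes followed here, Slc1a2, Slc1a3, Glul, Aqp4, Gja1, Gjb6, Aldoc, S100b, Ntsr2 and Fgfr3, are widely used as markers of these cells in the adult mouse brain. Glutamate released at synapses enters astrocytes through the transporters encoded by Slc1a2 and Slc1a3, and the enzyme encoded by Glul turns it into glutamine, which returns to neurons. The genes were chosen by symbol. Of 41174 probes that were not controls, 27190 matched 1 of 18535 genes through their RefSeq transcript, and 20 of those probes measured the 10 genes, from 1 probe for Slc1a3, Gja1, Aldoc and S100b to 4 for Slc1a2.

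Left hemibrain RNA of C57BL/6J males was hybridized to 10 dual dye Agilent arrays. Mice were single-housed, started on an n-3 PUFA enriched diet (FD) or a standard lab diet (SD) at 3 weeks, and were killed after about 20 weeks, at 5 months. Cy-5 marks the hemibrain RNA, and each spot compares it with a second RNA carrying Cy-3. The diet field of the labels gives FD for the Cy-5 sample of all 10 arrays, while their description field calls them controls and the methods name arrays of both diets. The Cy-3 RNA is a pool of SD hemibrains in the sample labels but a commercial reference RNA in the labeling protocol and the methods. No array was therefore assigned a diet, no FD and SD groups were compared, and values are given as the lowest, median and highest of the 10 arrays.

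Array C10-434 stood apart. On it 49.8% of probes had a Cy-5 signal well above background and 61.9% such a Cy-3 signal, against 68.2% to 76.9% and 70.3% to 79.1% on the other arrays. Many results that it could set are given with and without it, but r with slide means subtracted and r in Cy-3 alone only with it. No spot was saturated. The arrays lay on 4 slides, of which 2 held 4 arrays each. A dual dye ratio has no total count, so its precision was limited here by the number of arrays and by the Cy-3 signal. In a whole hemibrain, fewer astrocytes and less RNA per astrocyte cannot be told apart.

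The start regions below are shown because Slc1a3, S100b and Gjb6 had ratios that went up and down together over the arrays, and Gja1, the second connexin of the list, had the lowest ratio. They are the 250 bases before the RefSeq start (GRCm38.p6), 5′ to 3′ on the strand of the gene. Capitals mark TTGGC (part of the site of NFI factors, which act in astrocyte development), CCAAT (the CCAAT box), TATAAA (the TATA box) and ACAAT (a core of SOX sites), each searched on both strands.

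Slc1a3, chr15:8710808-8711057, minus strand: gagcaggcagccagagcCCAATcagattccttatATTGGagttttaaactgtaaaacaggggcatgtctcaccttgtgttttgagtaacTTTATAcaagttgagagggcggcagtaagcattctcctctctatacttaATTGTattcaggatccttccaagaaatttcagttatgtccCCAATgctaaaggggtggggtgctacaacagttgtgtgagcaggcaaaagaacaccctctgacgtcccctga

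S100b, chr10:76253586-76253835, plus strand: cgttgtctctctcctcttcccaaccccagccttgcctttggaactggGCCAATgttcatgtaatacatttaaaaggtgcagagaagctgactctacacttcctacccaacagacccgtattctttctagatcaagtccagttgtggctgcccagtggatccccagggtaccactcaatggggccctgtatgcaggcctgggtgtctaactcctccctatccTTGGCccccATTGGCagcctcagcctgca

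Gjb6, chr14:57133612-57133861, minus strand: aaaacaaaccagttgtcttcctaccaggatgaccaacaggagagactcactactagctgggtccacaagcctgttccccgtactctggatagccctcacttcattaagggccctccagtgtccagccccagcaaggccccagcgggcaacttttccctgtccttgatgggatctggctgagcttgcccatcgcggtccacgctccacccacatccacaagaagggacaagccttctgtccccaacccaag

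Gja1, chr10:56377050-56377299, plus strand: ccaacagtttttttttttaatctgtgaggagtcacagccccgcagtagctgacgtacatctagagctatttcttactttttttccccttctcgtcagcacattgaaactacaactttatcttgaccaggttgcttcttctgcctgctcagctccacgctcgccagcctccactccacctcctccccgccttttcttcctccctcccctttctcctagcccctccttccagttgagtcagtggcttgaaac

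The Slc1a3 region held 3 CCAAT, 1 TATAAA and 1 ACAAT match. The S100b region held 3 TTGGC and 2 CCAAT matches, and both CCAAT matches overlapped a TTGGC match by sharing CCAA. The regions of the connexins Gjb6 and Gja1 held none of the 4 motifs. Of 32851 regions of that length, 41.5% held TTGGC, 33.8% CCAAT, 27.7% ACAAT and 12.4% TATAAA. Among the 11 regions that the table lists for 9 of the 10 genes, 5 held TTGGC, 4 CCAAT, 2 ACAAT and 1 TATAAA. The region listed for Slc1a2, which is among the 5 with TTGGC, belongs to a start inside the gene. These shares are descriptions of letters, and the arrays did not measure factor binding.

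The RNA of all 10 astrocyte genes was measured well in the hemibrain. Taken at its brightest probe, each gene had Cy-5 signal well above background on all 10 arrays, as did 63.9% of 17656 genes. Each gene was also higher in Cy-5 than in Cy-3 on all arrays, and 9 of 10, all but Gja1, were at least 2-fold higher on each, against 15.7% of genes. By probe, 19 of 20 had computed ratios at least 2-fold higher on all arrays, against 12.4% of 40060 probes. The 19 include a dim Fgfr3 probe whose ratios are bounds. These are as low as 0.88 on C10-435 and -0.43 on C10-434, so that 2-fold is not shown for it on those arrays. The median over genes and arrays was a log2 ratio of 5.27 (38.6-fold), while the median of all genes was 0.05 and their 90th percentile 2.66. A median ratio above 5.27 was found for 2.21% of genes. The 2 dyes thus differed in both directions, since 2769 genes were at least 2-fold higher and 2844 at least 2-fold lower in Cy-5 on all arrays.

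The glutamate transporters had high ratios. Slc1a2 encodes GLT-1, the main glutamate transporter of the forebrain, and its log2 Cy-5/Cy-3 was lowest at 9.26 on C10-435, 10.05 at the median and 12.02 on C10-434. On C10-434 its Cy-3 signal was not well above background, so that its value there is a bound of at least 10.43, inside the range of the other 9 arrays, which reached 10.70. Slc1a3, which encodes GLAST, had 6.40 at the lowest, 6.62 at the median and 7.30 at the highest, again on C10-434, with no other array above 6.76. The other Slc1a2 probes gave lower ratios, with medians of 4.57, 4.14 and 3.13. The first of these was designed on another RefSeq transcript than the other probes of the gene. Its Cy-3 signal was not well above background on any array, which leaves at least a 21.0-fold difference. The 4 probes of Slc1a2 therefore had the same direction, and their medians differed by up to 6.92.

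Glul encodes glutamine synthetase, the enzyme that makes glutamine from glutamate and ammonia. Its ratio was 4.65 at the lowest, 5.01 at the median and 5.43 at the highest, the last on C10-416, and its second probe had a median of 3.18. The wider glutamate and glutamine cycle was less one-sided. Of the 13 genes listed for it, 12 had a value on all arrays, with a median of 1.85. Of these, 7 were at least 2-fold higher in Cy-5 throughout, against 15.7% of all genes. The highest was Slc38a5, a glutamine transporter, at 5.23.

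Aqp4 encodes the water channel of astrocyte endfeet. Its brightest probe had 3.77 at the lowest, 4.14 at the median and 5.00 on C10-434. A second probe had a median of 6.59, of which only at least 81.0-fold can be stated, because its Cy-3 signal was well above background on 3 arrays. The third had a median of 4.26, with Cy-3 well above background on 6 arrays. The 3 probes thus agreed in direction and not in size.

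The 2 connexins, which form the gap junctions that couple astrocytes, had very different ratios. Gjb6, connexin 30, had a median of 8.38 over the 10 arrays. Its Cy-3 signal was well above background on 6 of them, where its ratio ran from 7.28 to 8.61, and with the other 4 taken as bounds the median is at least 258-fold. Its highest value, 9.16 on C10-434, is such a bound, of at least 7.21. Its second probe had a median of 5.29 and followed the first over the arrays (r = 0.88, and 0.82 without C10-434, n = 10 and 9, given as a description). Probes of other genes followed each other less. For the brightest probe of a gene against its other probes, r was 0.15 for Ntsr2, 0.48 for Glul, 0.59 and 0.66 for Aqp4, 0.15 to 0.86 for Slc1a2, and -0.70 (the dim probe) and 0.85 for Fgfr3. Without C10-434 these were 0.34 for Ntsr2, 0.47 for Glul and 0.30 and 0.38 for Aqp4. For Slc1a2 they were then 0.25 to 0.56, and for Fgfr3 -0.64 and 0.47. The relations between genes below therefore hold for the brightest probes.

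Gja1, connexin 43, was the one gene under 2-fold, with a median of 0.63. It was printed on the array at 10 spots, of which 6 to 10 were kept on each array. The mean over spots was 0.43 on C10-413, 0.35 on C10-415, 0.43 on C10-416, 0.97 on C10-417 and 0.91 on C10-423. On the remaining arrays it was 0.47 on C10-424, 0.79 on C10-425, 0.84 on C10-434, 0.40 on C10-435 and 0.89 on C10-437. The SD between the spots of an array was 0.022 to 0.094, which covers the noise between spots of 1 hybridization and neither that between hybridizations nor that between animals. No array lay between 0.47 and 0.79, and both slides of 4 held 2 arrays on each side. The same 5 arrays were above this gap after loess and after median centring. After normexp background correction and in Cy-5 alone, the widest gap instead set 1 array apart from the other 9.

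**Figure D1:**
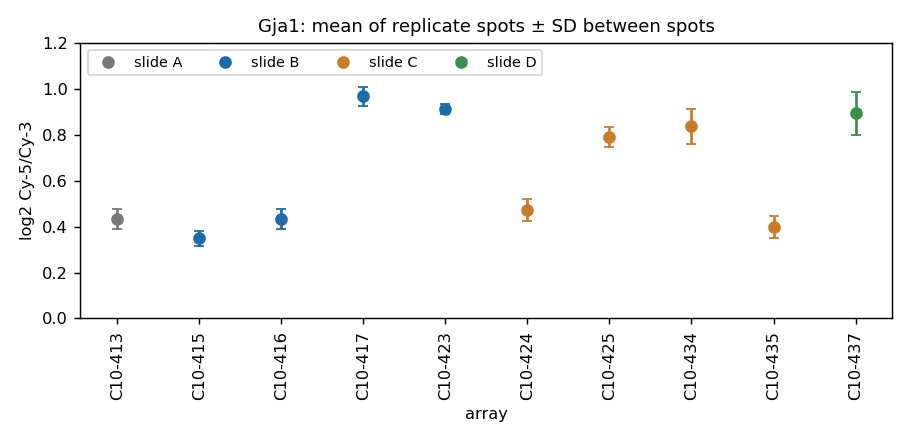
Gja1 log2 Cy-5/Cy-3 (vertical axis) on each of the 10 arrays (horizontal axis), coloured by slide. Points are the means over the 6 to 10 kept spots of the array and bars are ± SD between those spots. No array lies between 0.47 and 0.79.

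Aldoc encodes aldolase C, the brain form of a glycolytic enzyme. Its ratio was 3.77 at the lowest, 4.31 at the median and 4.76 at the highest, on C10-413. S100b encodes a calcium-binding protein of mature astrocytes, with 6.69, 7.12 and 7.57 at the lowest, the median and the highest. Both genes were measured well above background in both dyes throughout.

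The last 2 genes encode receptors. Ntsr2, a neurotensin receptor, had 5.20 at the lowest, 5.52 at the median and 6.00 on C10-434, with a median of 4.01 at its second probe. Fgfr3, a fibroblast growth factor receptor, had 2.28, 2.50 and 3.21, and the next array below C10-434 was at 2.72. Its other probes had medians of 3.44 and 2.49. The probe at 2.49 was dim, with Cy-3 well above background on 0 arrays and Cy-5 on 9, and reads at least 2.83-fold.

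**Figure D2:**
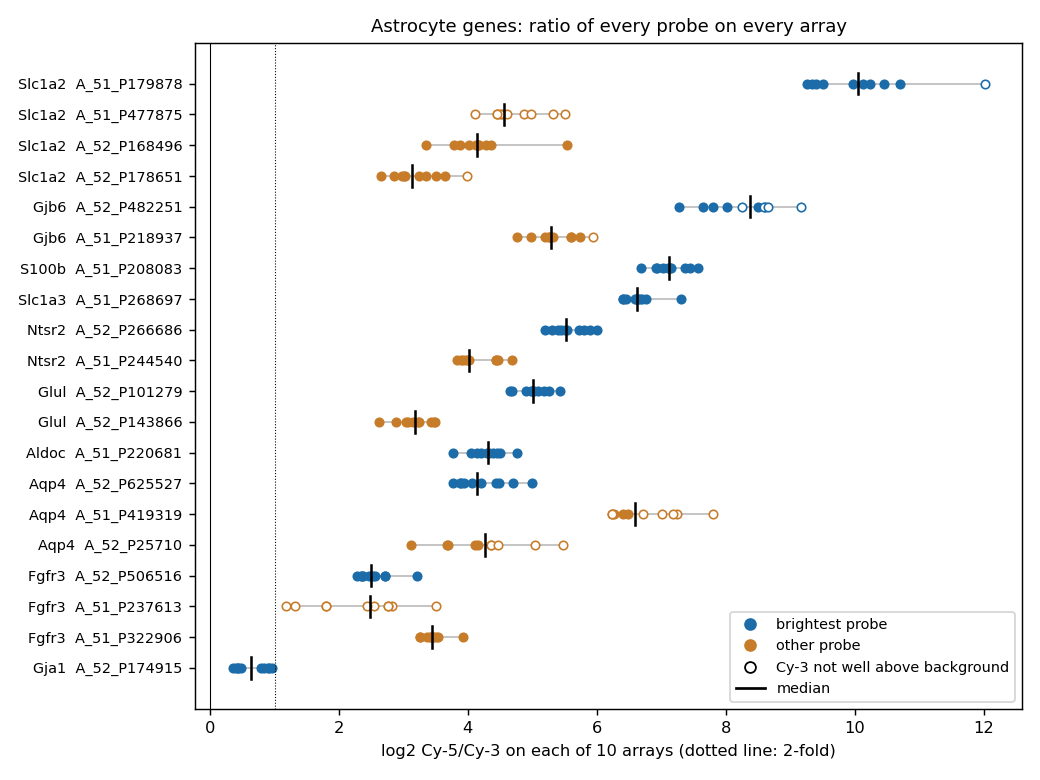
Log2 Cy-5/Cy-3 (horizontal axis) of each of the 20 probes of the 10 astrocyte genes on the 10 arrays (points), with the median (black bar). Blue marks the brightest probe of a gene and orange its other probes, and open points are arrays on which Cy-3 was not well above background. All medians lie above 0, from 0.63 for Gja1 to 10.05 for the brightest Slc1a2 probe.

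Ordered by median ratio, the genes ran Slc1a2, Gjb6, S100b, Slc1a3, Ntsr2, Glul, Aldoc, Aqp4, Fgfr3 and Gja1. The ranges over arrays did not overlap between Slc1a2 and Gjb6, Slc1a3 and Ntsr2, Aqp4 and Fgfr3, or Fgfr3 and Gja1. The ranges of the other neighbours overlapped. With Cy-3 signals that were not well above background taken as bounds, Slc1a2 was shown above Gjb6 on 6 of 10 arrays, Gjb6 above S100b on 9, Aldoc above Aqp4 on 5 and each other neighbour above the next on 10. The top of the order depends on the processing. With all probes of a gene averaged, Slc1a2 fell to 5.50 and Gjb6 to 6.83, below S100b at 7.12, and with normexp Gjb6 was at 5.69, below S100b at 6.83 and Slc1a3 at 5.96. This is an order of ratios, which also depends on the Cy-3 RNA, and does not rank the genes by amount of RNA in the hemibrain.

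The families of these genes did not share their ratios. Of 28 other family members with a value on all arrays, 11 were at least 2-fold higher and 6 at least 2-fold lower in Cy-5 throughout, with a median of 0.41. Of all 17656 genes, 2769 were at least 2-fold higher and 2844 at least 2-fold lower throughout, so the lower count is near that of all genes. Among glutamate transporters, Slc1a1, the neuronal EAAC1, had a median of 5.18, Slc1a6 had 1.11 and the Cy-5 signal of Slc1a7 was not well above background on any array. Beside S100b at 7.12, S100a4 was at -6.56, S100a6 at -5.34, S100a10 at -3.02 and S100a11 at -3.05, and S100a8 had Cy-5 signal well above background on 1 array. Aqp1, the water channel of the choroid plexus, had values from -3.16 to -2.47 and Aqp5 a median of -1.59, while Aqp11 had 1.91. Among connexins, Gjb2 (connexin 26) had 6.14, with Cy-3 well above background on 1 array, and Gjc1 (connexin 45) had -1.20. Aldoa had 1.87, Ntsr1 2.84, Fgfr2 1.81 and Fgfr1 -0.71.

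**Figure D3:**
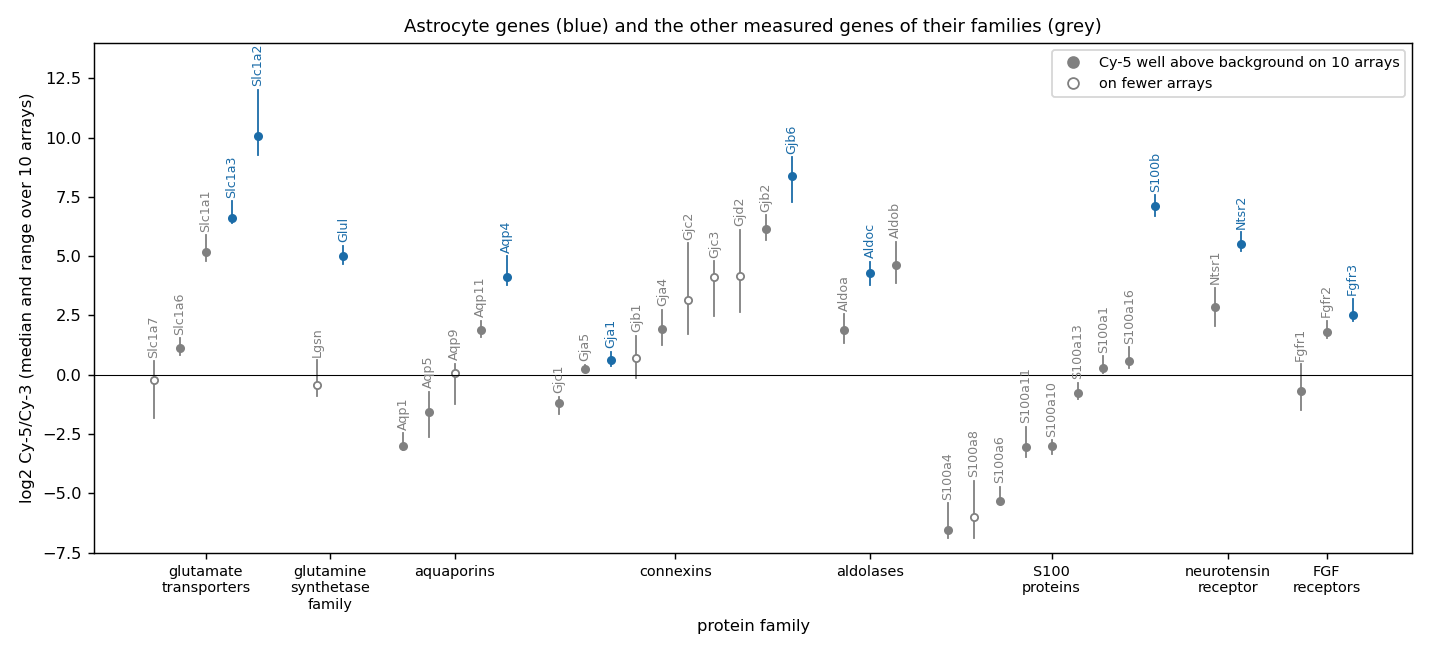
Median (point) and range (line) over the 10 arrays of log2 Cy-5/Cy-3 (vertical axis) for the astrocyte genes (blue) and 29 other genes of their protein families (grey), grouped by family (horizontal axis). Open points are genes whose Cy-5 signal was well above background on fewer than 10 arrays. S100b lies at 7.12 and S100a4 at -6.56.

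Other genes known from astrocytes were mostly in the same direction. Of 24 listed, 18 had a value on all arrays, with a median of 3.87. Of these, 14 were at least 2-fold higher in Cy-5 on every array, against 15.7% of all genes. Of these 18, Gfap, the intermediate filament of astrocytes, was highest at a median of 8.30, though its Cy-3 signal was well above background on 2 arrays, and F3, tissue factor, was lowest at -0.18. Among all 24, Sparcl1, a secreted matrix protein, was higher, at 8.86 with both dyes well above background, and it was left out of the 18 because an outlier-flagged spot took away its value on at least 1 array. High ratios were not particular to astrocyte genes. The median was 4.92 for 7 neuron markers, 5.04 for 8 oligodendrocyte markers, 2.85 for 8 microglia markers and 3.66 for 7 endothelium markers.

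The astrocyte genes varied little among arrays beside the size of their ratios. The range over 10 arrays had a median of 0.92 over the 10 genes, and 0.77 without C10-434. It was 0.99 over all genes and 1.58 over 905 other genes with a median log2 ratio over 4. To follow the list as a whole, each gene was taken relative to its own median over the arrays. The median of these deviations over the 10 genes was 0.58 on C10-434 and -0.21 to 0.22 on the other arrays. On C10-434 all 10 genes were above their own median as measured and 7 of 10 had their highest value. With the Slc1a2 and Gjb6 values there taken as bounds, 9 genes were shown above their median and 5 at their highest. The 905 genes with a log2 ratio over 4 deviated by 0.32 on that array, and all genes by 0.00. Markers of other cells moved there too, by 1.05 for neurons, 0.21 for oligodendrocytes, 0.07 for microglia and -0.48 for endothelium, and their part in the astrocyte values was not tested.

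The same deviations were then read in each dye alone, as log2 signal less the 75th percentile of that dye on the array. On C10-434 the astrocyte genes deviated by 0.12 in Cy-5 and by -0.54 in Cy-3. For Slc1a3, for example, the deviation on C10-434 was 0.68 in the ratio, -0.15 in Cy-5 and -0.85 in Cy-3. Aqp4 was otherwise, at 0.86 in the ratio, 0.82 in Cy-5 and -0.02 in Cy-3, as were Gja1 (0.21, 0.43 and 0.13) and Glul (0.17, 0.16 and 0.01). The higher ratios on C10-434 thus went with lower Cy-3 signals for some genes and with higher Cy-5 signals for others, and the part of the array's dim Cy-5 signal in them was not tested. Over the 10 arrays, the range of the list's median deviation was 0.79 in the ratio, 0.46 without C10-434 and 0.29 in Cy-5 alone.

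Gene by gene, the ranges of the 2 dyes differed. For Slc1a2 the range over arrays was 0.67 in Cy-5 and 2.65 in Cy-3 (1.53 in Cy-3 without C10-434), and for Gjb6 it was 0.75 and 1.82. The Cy-3 ranges of 2.65 and 1.82 include signals that were not well above background. S100b, Slc1a3, Ntsr2 and Fgfr3 also ranged more widely in Cy-3, though Slc1a3 did not once C10-434 was left out (0.66 in Cy-5, 0.52 in Cy-3). For Glul the range was 0.86 in Cy-5 and 0.24 in Cy-3, for Aldoc 0.74 and 0.34, and for Gja1 0.96 and 0.45. Aqp4 was near even, at 1.19 and 1.11. In all, 6 of 10 genes ranged more widely in Cy-3 than in Cy-5, against 16.6% of all genes and 72.3% of the 905 genes with a log2 ratio over 4.

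**Figure D4:**
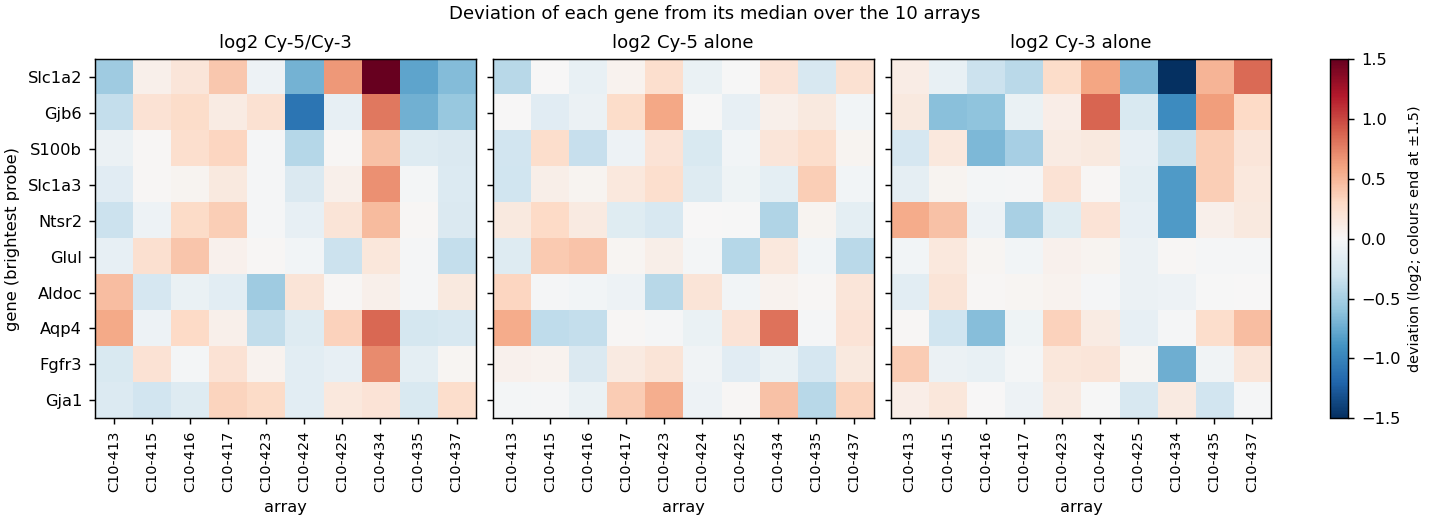
Deviation of each astrocyte gene (rows, brightest probe) from its own median over the 10 arrays (columns), on the log2 scale, for the ratio, Cy-5 alone and Cy-3 alone, with red above and blue below the median and colours ending at ±1.5. The column of C10-434 is red in the ratio for all 10 genes, with a median of 0.58, and mostly blue in Cy-3, with a median of -0.54.

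The ratios of many pairs of astrocyte genes went up and down together. All 45 pairs were compared over the 10 arrays, which shared the Cy-3 RNA as far as the labels say and the normalization. Computed ratios were used on every array, also where they are bounds. Cy-3 was well above background on 6 arrays for Gjb6 and on 9 for Slc1a2, so that r of pairs with these genes rests partly on dim Cy-3 signals. Pearson's r ran from -0.46 to 0.95 with a median of 0.46, and was above 0 in 36 pairs. After Benjamini-Hochberg adjustment over the 45 pairs, 13 had a permutation p under 0.05 by Pearson's r and 5 by Spearman's rho. The lowest r of those 13 was 0.73, a value that 28.9% of the astrocyte pairs reached, which are the same 13. It was reached by 3.18% of pairs of all genes and 14% of pairs of the 905 other genes with a log2 ratio over 4. The cut was set from the astrocyte pairs themselves, so these shares are a description and not a test. The shares of pairs above 0 were 80.0%, 51.0% and 59.6%. Slc1a2 and Slc1a3, the transporters, had r = 0.95 (permutation p = 0.00032, adjusted p = 0.0048) and rho = 0.92 (permutation p = 0.00063, adjusted p = 0.013). Without the 2 arrays farthest from the median of Slc1a2, their r was 0.96. Gjb6 and S100b had r = 0.92 (permutation p = 0.00031, adjusted p = 0.0048) and rho = 0.87 (permutation p = 0.0022, adjusted p = 0.019), and r was 0.78 without the 2 arrays farthest from the median of Gjb6. Aldoc had r below 0 with 8 of the 9 other genes and 0.46 with Aqp4, but none of its 9 pairs had a permutation p under 0.05, and with each slide's mean subtracted 7 of the 9 were above 0.

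These pairs rested in part on 1 array. Without C10-434, the median r was 0.38 and no pair passed the adjusted threshold in a permutation test, with 10 pairs at an unadjusted p under 0.05. The same cut of 0.73, set from the astrocyte pairs over all arrays, was kept here as a description. It was then reached by 20% of astrocyte pairs, 4% of pairs of all genes and 8.73% of pairs of the 905 other genes. The shares of pairs above 0 were then 75.6%, 51.4% and 65.9%. Slc1a2 and Slc1a3 then had r = 0.84 (permutation adjusted p = 0.066), and Gjb6 and S100b had r = 0.87 (permutation adjusted p = 0.056). A slide held at most 4 arrays, too few for a correlation of its own. Over the 8 arrays of the 2 slides of 4, C10-434 among them, with each slide's mean subtracted, the median r was 0.54 and 42 pairs were above 0.

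In the hemibrain channel by itself the pairs were not related in this way. In Cy-5 alone the median r was 0.05, 25 of 45 pairs were above 0, and no pair passed the adjusted threshold in a permutation test (5 at an unadjusted p under 0.05). In Cy-3 alone the median r was 0.31, with Cy-3 signals of Slc1a2 and Gjb6 that were not well above background included. Slc1a2 and Slc1a3 had r = 0.21 in Cy-5 and 0.88 in Cy-3, and Gjb6 and S100b had 0.31 and 0.60. Slc1a2 and Ntsr2 had 0.82 in the ratio and -0.67 in Cy-5. The shared movement of the transporter ratios was thus larger in the Cy-3 signal than in the hemibrain signal. The difference between the dyes was not tested.

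**Figure D5:**
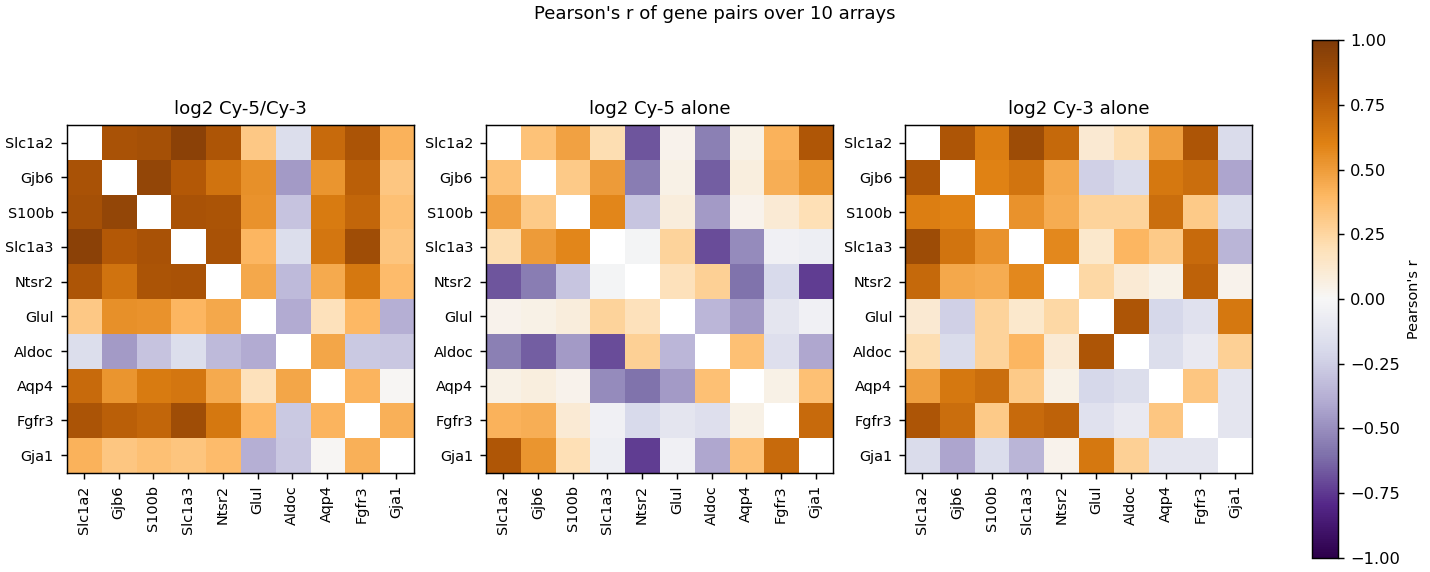
Pearson's r over the 10 arrays for each pair of astrocyte genes (rows and columns, in order of median ratio), in the log2 ratio, in Cy-5 alone and in Cy-3 alone, from -1 (purple) to 1 (brown). The median r is 0.46 in the ratio, 0.05 in Cy-5 and 0.31 in Cy-3.

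Among 10522 other genes measured well above background in both dyes throughout, the 5 whose ratios were most like the list's median deviation were Mlc1 (r = 0.972 over the 10 arrays), Socs3 (0.971), Cnnm1 (0.970), Kcnt1 (0.968) and Fam131a (0.968). Mlc1 encodes a membrane protein of astrocyte endfeet, and Kcnt1 a potassium channel. Socs3, an inhibitor of cytokine signalling, was lower in Cy-5, at a median of -2.21. Without C10-434 the 5 were Camk2n1, Tmem145, Dlgap3, Vstm2l and Mlc1, with r from 0.942 to 0.964 over 9 arrays. Mlc1 was the only gene in both. Without that array Cnnm1 and Kcnt1 were at ranks 6 and 7, Socs3 at 16 and Fam131a at 31. These are the highest of 10522 values of r over few arrays, and how high the top would be by chance was not tested. The likeness was not particular to astrocyte genes. The median deviation of the neuron markers had r = 0.89 with that of the 10 genes, and 0.75 without C10-434. For the other astrocyte genes it was 0.49 and 0.79, for oligodendrocyte markers 0.63 and 0.69, and for endothelium markers -0.04 and 0.83. For microglia markers it was 0.28 and 0.26.

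The slides were compared as a technical batch, since different hemibrain samples of unsettled diet lay on each. Between the 2 slides of 4 arrays, limma with Benjamini-Hochberg adjustment over 40299 probes called 0 of the 20 astrocyte probes in the ratio, where it called 0.0744% of all probes. At an unadjusted p under 0.05 it had 2 of 20, against 4034 of 40299 probes, which is about the same share. The lowest adjusted p was 0.193, at an Aqp4 probe that differed by 1.17 (SE 0.30) and whose Cy-3 signal was not well above background on the 4 arrays of 1 of the slides. In Cy-5 alone, limma called 0 of 20 as well, against 5.74% of all probes.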

How the data were processed

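Dual dye arrays of 10 hemibrain samples were used. The authors deposited the Feature Extraction output of each array (version 10.10.1.1 per the file headers), with signals as intensity on a linear scale and a log10 ratio of each spot. The processed intensity that the authors deposited is already background-subtracted, detrended over the slide, and dye-normalized by linear scaling and LOWESS. The table of values that the authors deposited matched log2 Cy-5/Cy-3 of these signals (r of at least 0.99999, 99.7% to 99.9% of probes within 0.001 on each array). The deposited flags were used as they were.

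From these, log2 Cy-5/Cy-3 was computed per spot with no further normalization, control spots (43379 of 45018 spots were not controls) and outlier-flagged spots were left out, and spots of a probe were averaged. A probe was well above background where at least 0.5 of its spots had that flag. The files hold accessions and no symbols, so 66.0% of probes were named through RefSeq transcripts (GRCm38.p6). A gene was taken at its probe of highest mean brightness over both dyes. Where Cy-3 was not well above background, a bound was computed with the lowest Cy-3 signal that was, or the probe's own if higher.

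The genes, lists and tests were chosen with earlier results of these data known. All 10 genes and their probes are named, with the highest and lowest gene of each list, family members, and the 5 most alike genes. A withheld item is not reported here. Microglia, endothelium, neuron and oligodendrocyte markers are given by their medians. Correlations used 100000 permutations (two-sided). The slides were compared with limma 3.58.1 in R 4.3.3, and the script was tested on simulated data. Python 3.11.15, numpy 2.4.6, pandas 2.3.3 and scipy 1.17.1 were used. Each array was taken as 1 animal, which the sample table does not state, and the methods name fewer arrays than the 10 deposited. The permutation and limma tests rest on that. No diet groups were formed. The motifs were chosen after the ratios were known. Start regions of 9 genes were read from the RefSeq table, with that of Aqp4 not used here. Alternatives were loess (span 0.3), median centring, normexp (offset 50), the deposited table, all probes of a gene, outlier spots kept, filters on dim spots, Cy-5 alone, and arrays left out.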

Additional observations from a re-analysis of the deposited data

Results flagged for a closer look

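In all, 6 values stood far from the other 9 arrays by a gap test at the 95% level, and all of them were on C10-434. They were the log2 Cy-5/Cy-3 of Slc1a2 at its brightest probe (12.02, others 9.26 to 10.70) and at a second probe (5.54, others 3.35 to 4.36), of Slc1a3 (7.303, others 6.40 to 6.76), and of Fgfr3 at its brightest probe (3.205, others 2.28 to 2.72) and at another (3.931, others 3.25 to 3.54). The sixth was the share of probes whose Cy-5 signal was well above background, 49.83%, against 68.2% to 76.9%. The Slc1a2 value of 12.02 is a bound of at least 10.43, since Cy-3 was not well above background there. That bound lies inside the range of the other 9 arrays, so this value is not shown to stand apart. The test was run on 23 sets of values and chance flags about 1 in 20.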

How the results depend on the processing

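The median ratios of the 10 genes kept their sign under every alternative run: of 70 values of single genes under alternatives, 58 moved by less than the spread between arrays and 12 by more. The median over genes and arrays of 5.27 became 5.05 with normexp, 4.90 with all probes of a gene and 4.66 with genes well above background in both dyes. The range of the list's median deviation, 0.79, became 2.34 with normexp, 0.54 with all probes, 0.46 without C10-434 and 0.29 in Cy-5 alone. The extreme arrays changed as well. The highest was C10-434 and the lowest C10-437 as processed and with all probes. With normexp they were C10-416 and C10-413, and in Cy-5 alone C10-423 and C10-416. With normexp, 7 in place of 9 genes were at least 2-fold higher on all arrays, as Aqp4 and Fgfr3 were at 0.20 and 0.44 on C10-413. In Cy-5 alone and without C10-434, an alternative chosen after seeing the data, the median r of pairs was 0.033. The slide-centred r was also chosen after seeing the data. The slide comparison called 0 astrocyte probes under each alternative and with each of its 8 arrays left out, which gave 0 to 0, while the count over all probes was 0 to 18 in place of 30 with an array left out and 0 with normexp. The causes were not tested. Cy-3 signal over background limits the ratios of Slc1a2, Gjb6 and Aqp4. No paired analysis was possible because no array had a group.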
